A study of Mus musculus with 24 samples.

Results

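Keratin-associated protein (Krtap) genes were followed in mouse epidermis that lacks the spindle checkpoint gene Mad2, at 4 postnatal ages and in adults. The members were all TargetIDs of the deposited signal table whose name starts with Krtap, 27 of 30854 TargetIDs, carried by 33 of 45281 probes and spread over 13 subfamily numbers. Of the 27, 24 passed the filter on dim probes (detection p under 0.01 in at least 2 arrays) and were tested. The other 3, KRTAP13, KRTAP3-2 and KRTAP6-1, were not detected in any of the 24 arrays. Names in the table are those of the array design. A RefSeq gene table gave 7 of the 27 another current symbol: KRTAP16-4 is now Krtap19-4, KRTAP16-5 is Krtap19-3, KRTAP16-7 is Krtap21-1, KRTAP16-8 is Krtap6-5, KRTAP16-9 is Krtap19-1, KRTAP16-10 is Krtap16-3 and KRTAP8-2 is Krtap19-5. The gene table lists Krtap16-10 as an old name of Krtap16-3, so KRTAP16-10 and KRTAP16-3 lead to 1 current gene there; the probes' sequences were not used to check this. KRTAP16-1 is both a current symbol and an old name of Krtap19-2, so its gene is uncertain. By current gene, 15 TargetIDs lie on chromosome 16, 7 on chromosome 11, 3 on chromosome 7 and 1 on chromosome 10.

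Epidermis was peeled from the dermis after a night in cold trypsin, and its total RNA was hybridised to Illumina bead arrays. Mutants carried the genotype Mad2f/f; K14Cre+, with 2 arrays each at postnatal days 3, 6, 13 and 20 (P3, P6, P13 and P20) and 1 in adults. A further 2 adult mutants were Mad2f/f; p53f/+; K14Cre+ and so carried 1 floxed p53 allele as well. Controls at P3 (4 arrays), P6 (2), P13 (2) and P20 (3) were labelled Cre-Neg, with no Mad2 genotype given, while the single adult control was Mad2f/+; K14-Cre+ and carried Cre. All mice were of the B6-129Sv mixed strain, and mutants were labelled Nude from P6 on but without a phenotype at P3. The K14 promoter drives Cre in basal keratinocytes, including those that give rise to the follicle, so other skin cells keep the gene. A 24th array, of P3, was labelled with the mutant genotype but with the type Control. It entered no group. The labels do not say that arrays came from separate animals, so the tests measure the spread between these arrays, which may be partly technical.

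Keratin-associated proteins are small structural proteins of the hair shaft. They are made late in the differentiation of the hair cortex and cuticle, where they form the matrix around the hair keratin filaments and are cross-linked to them. The family is sorted by composition into high-sulphur, ultra-high-sulphur and high-glycine-tyrosine proteins, and its genes lie in clusters. In mouse skin the shaft is built during anagen, the growth phase of the hair cycle. The first cycle grows after birth and regresses in the third postnatal week, when hair production stops.

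Markers of the labelled tissue were present, and in some arrays markers of other tissue were too. All 14 tested fibroblast markers were detected in the P6, P13 and adult control arrays, against 4 to 5 in the P3 control arrays. All 5 tested markers of differentiated keratinocytes were detected in every array, and 4 or 5 of the 5 basal markers were. The targeted gene Mad2l1 was lower in mutants at every age, by log2 differences of -2.28 ± 0.42 at P3 (SE, adjusted p = 0.0048), -2.26 ± 0.48 at P6 (adjusted p = 0.00281), -3.84 ± 0.48 at P13 (adjusted p = 3.55e-05), -2.22 ± 0.44 at P20 (adjusted p = 0.00425) and -3.34 ± 0.56 in adults (adjusted p = 0.000687). Between 23.3% and 40.1% of probes were detected per array. Each array lay on 1 of 8 chips, called A to H here. All P13 arrays shared chip E, the other ages used 2 chips each, and every step between ages also crossed chips. No array of any pair repeated another: the smallest SD of the log2 difference over probes was 0.326 among 276 pairs. Levels below are log2 normalised intensities, differences are mutant minus control on that scale with their SE, and calls rest on a Benjamini-Hochberg adjusted p under 0.05 over 14950 genes in limma. Where no array of the dimmer group detected a probe, the difference is followed by a lower bound on the fold ("at least"), taken against the lowest signal of any detected probe on those arrays, or the probe's own where that was higher.

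The sequences just upstream of the transcript starts are shown for 8 members on which the results turn, 120 bases each, 5′ to 3′ on the gene's strand (RefSeq, GRCm38.p6). All 8 genes lie on the minus strand. The first 3 fell at P6 in mutants, the next 3 did not pass the test there, Krtap3-1 was the member that fell at P20, and Krtap6-5 fell at least 203-fold at P13. They lie at chr16:88885090-88885209 (Krtap19-4), chr16:88826146-88826265 (Krtap14), chr16:88962874-88962993 (Krtap16-3), chr16:89403775-89403894 (Krtap21-1), chr11:99644090-99644209 (Krtap4-7), chr11:99614847-99614966 (Krtap2-4), chr11:99566631-99566750 (Krtap3-1) and chr16:89047900-89048019 (Krtap6-5). Capitals mark every match to a motif described in the next paragraph.
Krtap19-4: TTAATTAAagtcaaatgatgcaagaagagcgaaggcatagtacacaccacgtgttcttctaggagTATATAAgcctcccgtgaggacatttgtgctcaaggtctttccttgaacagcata
Krtap14: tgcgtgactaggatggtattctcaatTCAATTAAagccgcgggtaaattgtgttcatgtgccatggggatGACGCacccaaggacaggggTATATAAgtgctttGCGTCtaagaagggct
Krtap16-3: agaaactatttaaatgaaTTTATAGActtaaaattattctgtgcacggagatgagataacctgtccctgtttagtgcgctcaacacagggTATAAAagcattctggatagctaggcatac
Krtap21-1: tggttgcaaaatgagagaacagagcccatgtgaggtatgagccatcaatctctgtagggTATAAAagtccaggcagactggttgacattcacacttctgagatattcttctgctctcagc
Krtap4-7: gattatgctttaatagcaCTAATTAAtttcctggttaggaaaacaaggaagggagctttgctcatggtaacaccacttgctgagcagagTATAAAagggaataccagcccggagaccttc
Krtap2-4: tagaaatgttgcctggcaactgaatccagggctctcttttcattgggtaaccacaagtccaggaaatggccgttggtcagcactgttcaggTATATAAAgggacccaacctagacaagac
Krtap3-1: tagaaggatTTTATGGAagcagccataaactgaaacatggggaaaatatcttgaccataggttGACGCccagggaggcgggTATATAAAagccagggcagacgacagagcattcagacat
Krtap6-5: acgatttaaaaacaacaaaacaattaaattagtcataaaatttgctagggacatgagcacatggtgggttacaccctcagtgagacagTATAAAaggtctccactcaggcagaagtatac

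RefSeq promoters, searched over the 250 bases before the start, were found for 23 of the 25 current genes, Krtap12-1 and Krtap9-1 being the others. The TATA box letters TATAAA, searched on the gene's strand, stood in 17 of 23 (73.9%), against 7.59% of all 32851 promoters in the table. A longer form, TATATAA, was added after these sequences had been seen. It overlaps TATAAA where a further A follows, and was found in 10 of 23 (43.5%) against 2.05%. At least 1 of both forms was present in 22 of 23 (95.7%) against 8.7%, and Krtap5-4 held neither. In the last 40 bases TATAAA was present in 11 of 23 (47.8%) against 2.31%. A further 3 motifs were searched on both strands. Hoxc13, a homeobox factor of the hair shaft, binds TTAATN or TTTATN followed by a pair of purines, letters present in 12 of 23 promoters (52.2%) against 17.2% of all. The Lef1 core CTTTGT stood in 9 (39.1%) against 16.5%, and the Foxn1 core GACGC in 2, Krtap14 and Krtap3-1 (8.7%), against 22.6%. The Hoxc13 letters were present in 6 of the 9 promoters of genes lower in P6 mutants and in 4 of the 11 of tested genes not past the threshold there. In the same order, TATAAA stood in 6 of 9 and 8 of 11, and TATATAA in 5 of 9 and 4 of 11. The Lef1 core stood in 3 of 9 and 4 of 11, and the Foxn1 core in 2 of 9 and 0 of 11. These matches describe the letters only.

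At P3, when mutants were labelled as having no phenotype, 20 of the 24 tested members were lower in mutants and none was higher, where 1.62% of all genes tested were lower. The median difference of the 24 was -3.34, or -3.10 with undetected members at their bound, against 0.03 over all genes. Every tested member of subfamilies 2, 3, 4, 5, 6, 9, 12, 13, 14, 15 and 17 fell. Of the array's KRTAP16 names, 5 of 8 fell. The remaining 4 members of the 24, KRTAP16-1, KRTAP16-5, KRTAP16-9 and KRTAP8-2, did not pass. In bulk tissue such as this, fewer cells of a type and less RNA per cell cannot be told apart.

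KRTAP16-4 (Krtap19-4), a high-glycine-tyrosine protein gene, had the largest fall at P3. It stood at 6.49 and 5.46 in the P3 mutants, against 12.09, 13.66, 12.37 and 12.34 in the P3 controls, a difference of -6.64 ± 0.42 (adjusted p = 1.19e-07). All 4 controls lay far above both mutants. KRTAP6-2, of the same composition class, stood at 7.66 and 8.47 in mutants against 13.50, 14.01, 13.29 and 12.09 in controls, a difference of -5.16 ± 0.61 (adjusted p = 6.10e-05). The groups did not overlap, and control 4 was the lowest of the controls. KRTAP16-3 fell by 5.01 ± 0.77 on the log2 scale (adjusted p = 0.00106). KRTAP16-8 (Krtap6-5) fell by 4.85 ± 0.64 (adjusted p = 0.000213). KRTAP16-7 (Krtap21-1), also of the high-glycine-tyrosine class, stood at 7.14 and 7.55 in mutants against 12.03, 12.61, 12.10 and 10.74 in controls, a difference of -4.53 ± 0.46 (adjusted p = 1.27e-05). Its groups did not overlap either.

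Many members were still detected in mutants at P3. The P3 mutant arrays detected 14 and 12 of the 24 members, against 22, 24, 21 and 22 in the P3 control arrays. KRTAP3-1, a high-sulphur protein gene, was detected in both mutants, at 10.44 and 10.56, against 14.05, 14.45, 13.82 and 13.12 in controls (-3.36 ± 0.45, adjusted p = 0.000272). No mutant array detected 10 members: the KRTAP5 genes KRTAP5-4 and KRTAP5-5, KRTAP6-3, KRTAP12-1, KRTAP14, KRTAP15 and KRTAP16-10, which were called lower, and KRTAP16-1, KRTAP16-5 and KRTAP16-9, which were not. KRTAP5 genes, known in human follicles from the hair cuticle, fell as well, with differences of -2.63 ± 0.28 in KRTAP5-4 (at least 2.29-fold), -3.24 ± 0.28 in KRTAP5-5 (at least 3.52-fold) and -3.99 ± 0.32 in KRTAP5-2. KRTAP6-3 fell at least 8.62-fold and KRTAP12-1 at least 8.50-fold. Within chip A, which held both mutants and 3 of the controls, all 24 members were lower in mutants, with a median of -3.60. Counting the array with conflicting labels as a P3 mutant left 8 members called lower. Counting it as a P3 control kept the count within 1.5 times the reported 20. Its Mad2l1 level was 7.89, beside 4.80 and 5.85 in P3 mutants and 7.09 to 7.99 in P3 controls.

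**Figure D1:**
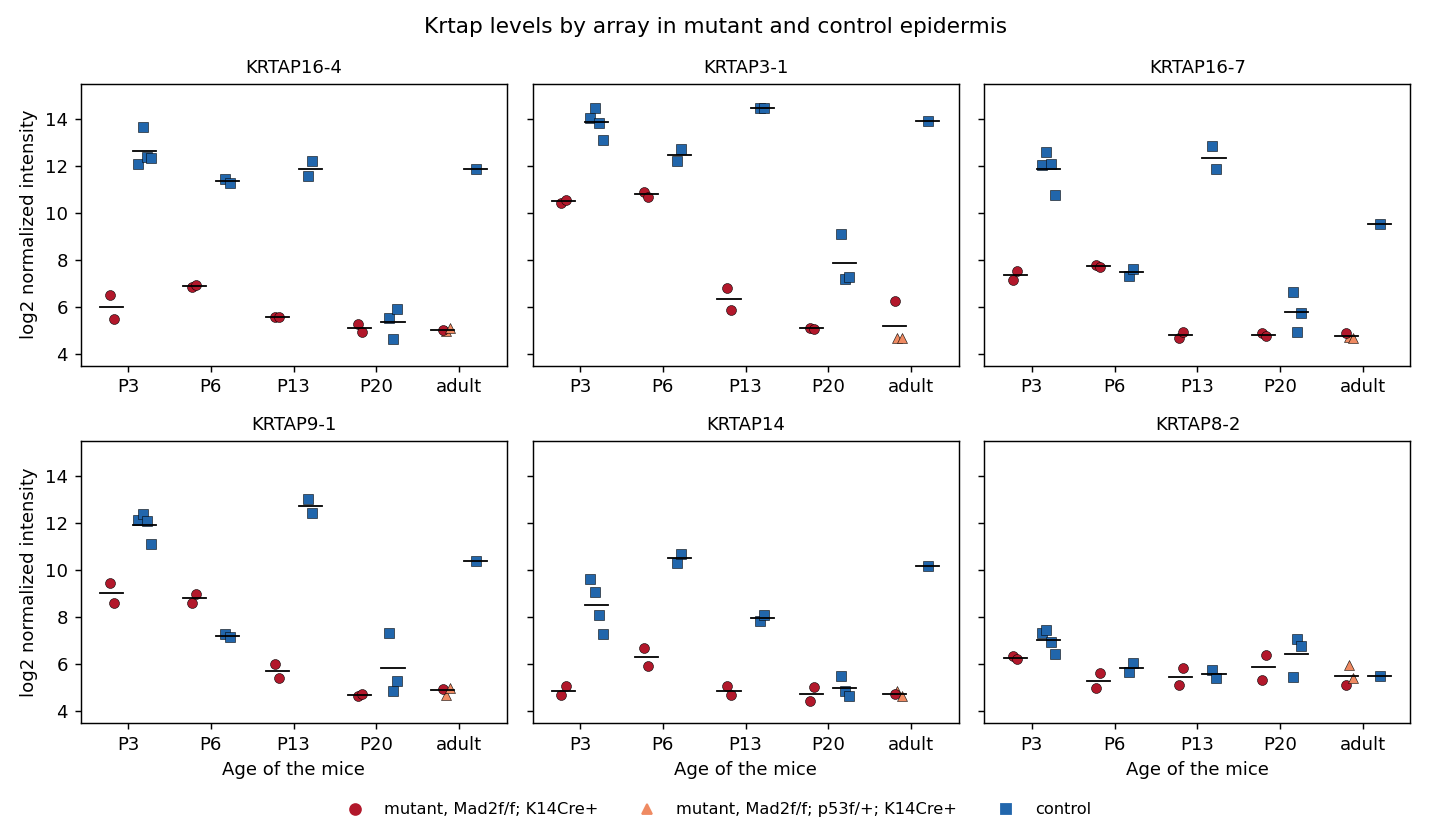
Log2 normalised intensity (y axis) of 6 members by age (x axis) in epidermis of mutants (circles Mad2f/f; K14Cre+, triangles Mad2f/f; p53f/+; K14Cre+) and controls (squares). Points are arrays, bars are group means, and each panel is a different probe, so heights are not comparable between panels. At P6 the KRTAP9-1 mutants (8.61 and 9.0) sit above the controls (7.29 and 7.14), while at P13 they sit far below them.

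At P6, 11 of 24 members were lower in mutants and none was called higher, against 12.9% of all genes lower. The median difference was -1.70, or -1.59 with undetected members at their bound, against -0.03 over all genes. The fall at P6 took in KRTAP3-1, KRTAP6-3, KRTAP9-3, KRTAP12-1, KRTAP13-1, KRTAP14, KRTAP15, KRTAP16-3, KRTAP16-4, KRTAP16-10 and KRTAP17-1. No member of subfamilies 2, 4, 5 or 8, numbered by the array's names, passed. Of these, 2, 4 and 8 held 1 tested member each, that of 8 being KRTAP8-2 (Krtap19-5). A Krtap4-13 row under an older name, not a member here, was called higher in P6 mutants. It stood at 7.03 and 7.96 in mutants against 5.45 and 5.33 in controls.

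KRTAP16-4 again had the largest difference, at 6.84 and 6.92 in P6 mutants against 11.43 and 11.26 in P6 controls (-4.47 ± 0.48, adjusted p = 6.30e-06). KRTAP14, a high-sulphur protein gene, stood at 6.70 and 5.94 in mutants against 10.32 and 10.70 in controls (-4.19 ± 0.56, adjusted p = 4.85e-05). In both genes the mutants lay well below the controls. KRTAP16-3 stood at 9.31 and 9.30 in mutants against 12.58 and 12.89 in controls (-3.43 ± 0.89, adjusted p = 0.0108), and KRTAP6-3 fell by 3.18 ± 0.82 (adjusted p = 0.00983). The calls of these 2 genes were lost without some single arrays (adjusted p between 0.0568 and 0.0767). KRTAP15 was undetected in both mutants and fell by 2.78 ± 0.44 (adjusted p = 0.000268), at least 5.25-fold.

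The other 13 members did not pass at P6, and ranged from near-equal levels to wide differences. KRTAP16-8 (-1.76 ± 0.74, adjusted p = 0.104) and KRTAP6-2 (-1.53 ± 0.70, adjusted p = 0.140) had both mutants below both controls. KRTAP4-7, an ultra-high-sulphur protein gene, stood at 9.28 and 9.63 in mutants and at 9.53 and 9.41 in controls, a difference of -0.02 ± 0.65 (adjusted p = 0.990). The groups overlapped. KRTAP16-7 stood at 7.77 and 7.68 in mutants against 7.33 and 7.62 in controls (0.25 ± 0.53, adjusted p = 0.803). KRTAP9-1, also of the ultra-high-sulphur class, was the 1 member whose mutants stood clearly above the controls, at 8.61 and 9.0 against 7.29 and 7.14, but the difference of 1.59 ± 0.60 did not pass (adjusted p = 0.0705). This call depended on the processing: KRTAP9-1 passed as higher in mutants in 6 of 11 alternatives (differences of 0.85 to 1.59, adjusted p between 0.00138 and 0.145), though not with any single P6 array left out. KRTAP2-4 (-0.63 ± 0.77), KRTAP5-2 (-0.86 ± 0.37), KRTAP5-5 (-0.29 ± 0.33) and KRTAP5-4 (0.14 ± 0.32 on its brighter probe, which no P6 array detected) did not pass either. The other KRTAP5-4 probe stood at 4.63 and 4.73 in P6 mutants, undetected, against 5.51 and 5.81 in P6 controls, detected in both. KRTAP9-3 fell by 1.83 ± 0.59 at P6 (adjusted p = 0.0356), but a row of the table under the older name 2310040M23RIK, whose current symbol is also Krtap9-3, stood at 8.53 and 8.89 in mutants against 8.31 and 7.40 in controls (0.86 ± 0.63, adjusted p = 0.376). The 2 rows thus disagreed at P6, while at P13 both fell. Missing the threshold does not show equal levels. The P6 count itself was 7 without mutant 2 or without control 2.

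The P6 groups also differed in skin layers outside the epidermis. Of 14 tested fibroblast markers, 14 were lower in P6 mutants. Their mean level was 5.25 to 5.31 in mutant arrays, with 3 detected, against 10.5 to 10.9 in control arrays, with 14 detected. The dermal papilla list averaged 4.76 to 4.89 in mutants, with none of its 5 tested genes detected, against 7.43 to 7.95 in controls, with all 5 detected. The part of these markers in the P6 result was not tested. At P3 the fibroblast list stood the other way, at 6.13 to 6.97 in mutants against 5.56 to 5.81 in controls, and at P13 it was close, at 9.26 to 9.50 in mutants against 9.57 to 9.98 in controls.

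**Figure D2:**
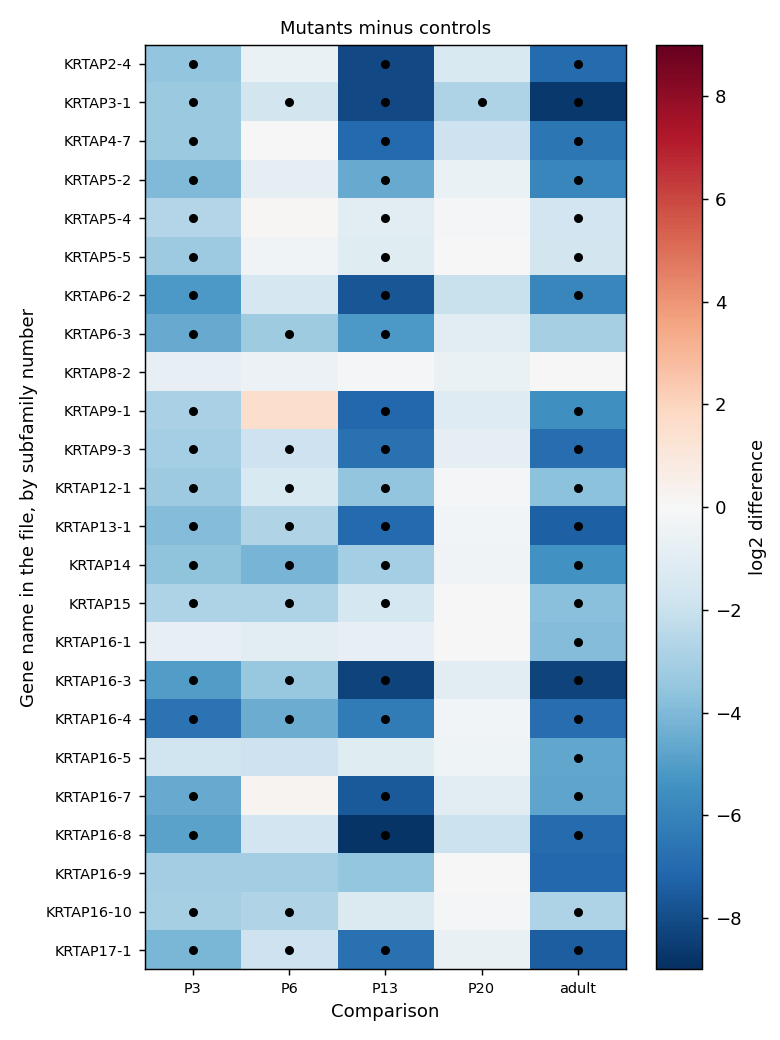
Log2 difference, mutants minus controls (colour), for the 24 tested members (rows, by the subfamily number of the file's names) at 5 ages (columns). Dots mark an adjusted p under 0.05, of which there are 20 at P3, 11 at P6, 19 at P13, 1 at P20 and 21 in adults, all on negative differences.

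At P13, 19 of 24 members were lower in mutants and none was higher, where 10.4% of all genes were lower. The median difference was -5.75, or -4.60 with undetected members at their bound, against -0.02 over all genes. Mutant arrays detected 6 and 2 of the 24 members, and control arrays 21 and 24. KRTAP16-8 stood at 4.94 and 4.57 in P13 mutants against 13.68 and 13.44 in P13 controls (-8.81 ± 0.74, adjusted p = 4.83e-07), at least 203-fold lower. KRTAP16-3 stood at 6.05 and 5.21 in mutants against 14.50 and 13.39 in controls (-8.32 ± 0.89, adjusted p = 7.29e-06). KRTAP2-4, a high-sulphur protein gene, stood at 4.77 and 4.62 in mutants against 13.02 and 12.65 in controls (-8.14 ± 0.77, adjusted p = 2.02e-06), at least 122-fold lower.

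In none of these 3 genes did the arrays overlap, and the mutants lay at or near background. KRTAP3-1 was still detected in both mutants, at 6.78 and 5.86 against 14.45 and 14.47 in controls (-8.14 ± 0.52, adjusted p = 2.69e-08). KRTAP6-2 fell by 7.67 ± 0.70 (adjusted p = 1.39e-06). KRTAP17-1, of the ultra-high-sulphur class, was also detected in both mutants, at 6.39 and 6.52, against 13.17 and 13.23 in controls (-6.75 ± 0.39, adjusted p = 9.57e-09). KRTAP9-1, KRTAP16-7 and KRTAP4-7, which had not passed at P6, fell at P13, with differences of -7.03 ± 0.60, -7.54 ± 0.53 (at least 87.2-fold) and -6.96 ± 0.65 in that order. KRTAP5-4 (-1.01 ± 0.32) and KRTAP5-5 (-1.06 ± 0.33, at least 1.41-fold) fell too, neither detected in a P13 mutant. The other KRTAP5-4 probe stood at 4.45 and 4.32 in P13 mutants against 7.00 and 6.4 in P13 controls. All 6 members on chromosome 11 that were tested fell at P13, as did 3 of 3 on chromosome 7, 1 of 1 on chromosome 10 and 9 of 13 on chromosome 16. Members not past the threshold were KRTAP16-1, KRTAP16-5, KRTAP16-9, KRTAP16-10 and KRTAP8-2. Of the 5 dermal papilla markers, 4 were lower in P13 mutants, at a mean of 5.37 to 5.93 with 0 to 2 detected, against 7.63 to 7.70 in controls with all 5 detected. Of the 5 markers of differentiated keratinocytes, 3 were higher, at 14.62 to 14.99 in mutants against 12.92 to 13.07 in controls. The part of these markers at P13 was not tested.

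At P20 only KRTAP3-1 was called, 1 of 24 members, where 5.57% of all genes were lower. The median of the 24 was -0.60, or 0 with undetected members at their bound, against -0.03 over all genes. All 24 were undetected in the dimmer group. KRTAP3-1 stood at 5.09 and 5.06 in P20 mutants, undetected, against 9.10, 7.20 and 7.27 in P20 controls, all detected (-2.78 ± 0.48, adjusted p = 0.00153, at least 2.84-fold). The difference was -4.01 within chip F and -2.17 within chip G. The call was lost with only the P20 arrays in the fit (adjusted p = 0.204), with array weights (adjusted p = 0.0880) and on the authors' normalised matrix (adjusted p = 0.108).

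The P20 mutants detected none of the 24 members, and the P20 controls detected 12, 2 and 3. Control 1, on chip F, thus stood apart from the other controls, on chip G. In KRTAP2-4, for example, the mutants stood at 4.71 and 4.43 against 8.16, 5.01 and 4.64 in controls (-1.37 ± 0.71, adjusted p = 0.261). KRTAP6-2 (-2.01 ± 0.64, adjusted p = 0.06) and KRTAP4-7 (-1.88 ± 0.59, adjusted p = 0.0579) missed the threshold, and control 1 was again the highest. The fibroblast list moved the same way, at 5.29 to 5.87 in mutants against 7.49, 6.23 and 5.83 in controls 1, 2 and 3. Its part was not tested. Counts at P20 rested on the handling of chips: 8 members were lower without the 4 arrays of chips G and H, which leaves 1 mutant and 1 control at P20, both on chip F, with their spread taken from the other groups. With chip as a fixed block 5 were lower.

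In adults, 21 of 24 members were lower in mutants and none was higher, where 6.47% of all genes were lower. The median was -5.67, or -4.76 with undetected members at their bound, against -0.01 over all genes. This comparison rests on 1 control array, whose spread was taken to equal that of the other groups. KRTAP3-1 stood at 6.27 in the mutant without the floxed p53 allele and at 4.67 and 4.66 in those with it. The control stood at 13.89, a difference of -8.69 ± 0.60 (adjusted p = 1.62e-07). KRTAP16-3 stood at 5.37 in that mutant and at 4.63 and 4.83 in the other two, against 13.30 in the control (-8.36 ± 1.03, adjusted p = 4.73e-05), at least 187-fold lower.

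KRTAP17-1 fell by 7.40 ± 0.45 in adults (adjusted p = 4.25e-08). KRTAP13-1, a high-sulphur protein gene, fell by 7.36 ± 0.63 (adjusted p = 9.78e-07), and KRTAP2-4 fell by 6.95 ± 0.89 (adjusted p = 7.06e-05, at least 60.7-fold). Of the 24 members, the adult mutant without the floxed p53 allele detected 3, and those with it detected 1 and 0. The control detected all 24. The array with 0 had no usable detection p, and detection on it was called from a signal limit set by the other arrays of its chip. The fibroblast list averaged 10.2 in the mutant without the floxed p53 allele and 5.12 to 5.39 with it, against 10.9 in the control. Muscle markers averaged 12.6 in the mutant without the floxed p53 allele, with all 4 tested detected. They averaged 6.10 to 6.21 in the mutants with it and 7.85 in the control. The member mean was 5.01 in the first of these mutants and 4.73 and 4.66 in the others, against 10.03 in the control. Dermal papilla markers averaged 6.23 in the first and 4.81 to 5.09 in the others, against 7.59 in the control, and the part of these markers was not tested. KRTAP16-9 (adjusted p = 0.0594), KRTAP6-3 (adjusted p = 0.0532) and KRTAP8-2 (adjusted p = 0.990) did not pass.

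The controls themselves changed with age. Each step compares different chips, so age and chip cannot be told apart, and some arrays served in more than 1 comparison. Between P3 and P6, 13 of 24 members fell (15.4% of all genes fell) and 1 rose (17.8% rose). KRTAP9-1 stood at 7.29 and 7.14 in P6 controls against 12.14, 12.39, 12.08 and 11.11 in P3 controls (-4.71 ± 0.52, adjusted p = 5.51e-06). KRTAP16-7 fell by 4.39 ± 0.46 (adjusted p = 3.39e-06). KRTAP5-2 stood at 8.99 and 8.98 in P6 controls against 13.09, 12.86, 12.80 and 12.19 in P3 controls (-3.75 ± 0.32, adjusted p = 4.75e-07). All 3 tested KRTAP5 genes fell in this step. KRTAP5-4 was called on its brighter probe, which neither P6 control detected. On its other probe the ages overlapped, at 5.51 and 5.81 in P6 controls against 6.55, 6.02, 5.78 and 6.08 in P3 controls.

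KRTAP14 was the member that rose, at 10.32 and 10.70 in P6 controls against 9.62, 9.09, 8.11 and 7.28 in P3 controls (1.99 ± 0.48, adjusted p = 0.00497). All 14 tested fibroblast markers rose in the same step, and their part was not tested. KRTAP13-1 (-0.06 ± 0.47), KRTAP6-3 (-0.21 ± 0.71) and KRTAP16-3 (-0.34 ± 0.77) did not pass. The step thus ran differently among members, by values from -4.71 to 1.99. The count past the threshold, 14 in both directions, was 9 without either P6 control.

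Between P6 and P13, 4 members rose in controls (0.816% of all genes rose) and 2 fell (1.05% fell). KRTAP9-1 reached 13.03 and 12.46 at P13 (5.53 ± 0.60, adjusted p = 0.000182) and KRTAP16-7 reached 12.84 and 11.85 (4.87 ± 0.53, adjusted p = 0.000182). Both genes thus stood lower in P6 controls than in controls of the ages before and after. KRTAP4-7 rose by 3.36 ± 0.65 (adjusted p = 0.0129) and KRTAP17-1 by 1.75 ± 0.39 (adjusted p = 0.0294). KRTAP14 (-2.55 ± 0.56, adjusted p = 0.0274) and KRTAP15 (-1.85 ± 0.44, adjusted p = 0.0425) fell. The count moved between 2 and 16 members over other settings, and was 2 without any single P6 or P13 control array.

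Between P13 and P20, 18 of 24 members fell in controls, where 13.0% of all genes fell. KRTAP17-1 stood at 6.03, 5.42 and 4.63 in P20 controls against 13.17 and 13.23 in P13 controls (-7.84 ± 0.35, adjusted p = 6.73e-10). KRTAP16-3 fell by 7.83 ± 0.82 (adjusted p = 4.40e-06) and KRTAP13-1 by 7.47 ± 0.50 (adjusted p = 3.19e-08). Fibroblast markers fell too, 11 of 14. The adult control was high again, with all 24 members detected.

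**Figure D3:**
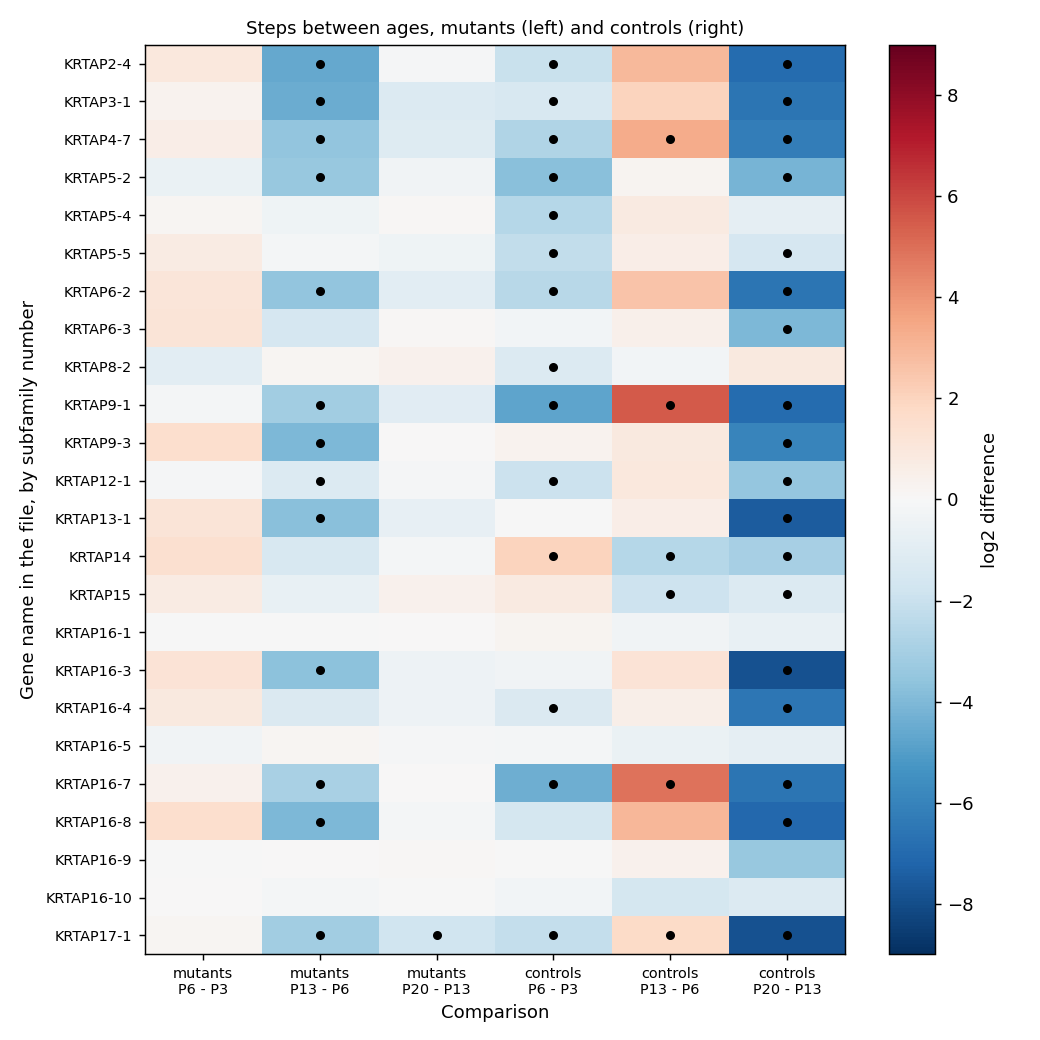
Log2 difference between neighbouring ages (later minus earlier, colour) for the 24 tested members (rows), in mutants (left 3 columns) and controls (right 3 columns). Dots mark an adjusted p under 0.05. Over the 3 steps in order, 0, 13 and 1 members fell in mutants, against 13, 2 and 18 in controls. P13 mutants detected only 6 and 2 of the 24 members, which left little room for a fall to P20.

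In mutants the counts by step were different. No member passed between P3 and P6 in limma, where 3.12% of all genes changed in either direction. At an unadjusted p under 0.05 there were 4, and array weights gave 5. Between P6 and P13, 13 of 24 fell (6.92% of all genes fell). KRTAP2-4 (-4.58 ± 0.77, adjusted p = 0.00081, at least 10.4-fold) and KRTAP3-1 (-4.47 ± 0.52, adjusted p = 2.87e-05, detected at both ages) were among them. All 6 tested members on chromosome 11 were among the 13, beside 5 of 13 on chromosome 16, 1 of 3 on chromosome 7 and 1 of 1 on chromosome 10. In the same step 11 of 14 fibroblast markers rose in mutants. Between P13 and P20 only KRTAP17-1 fell (-1.76 ± 0.39, adjusted p = 0.00706, undetected in both P20 mutants, at least 1.07-fold), 1 of 24 where 8.01% of all genes fell. The 24 members already averaged 5.19 and 5.04 in the P13 mutants, with 6 and 2 detected. A further fall could hardly be seen from there, so this count is not comparable with that of the controls.

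The difference between genotypes was itself compared between ages, as a difference of differences. It was less negative at P6 than at P3 in 10 of 24 members (4.51% of all genes shifted that way). Placing the doubtfully labelled P3 array among the mutants brought this to 3, and placing it among the controls kept it within 1.5 times. The largest fitted shifts were those of KRTAP16-7 (4.78 ± 0.70, adjusted p = 0.000355), KRTAP9-1 (4.50 ± 0.80, adjusted p = 0.00158) and KRTAP6-2 (3.63 ± 0.93, adjusted p = 0.0193), and all 3 KRTAP5 genes were among the 10. The KRTAP5-4 shift rests on its brighter probe, which no P6 array and no P3 mutant detected. Its other probe stood at 4.56 and 4.53 in P3 mutants against 6.55, 6.02, 5.78 and 6.08 in P3 controls. At P6 that probe stood at 4.63 and 4.73 in mutants against 5.51 and 5.81 in controls. The genotype difference was more negative at P13 than at P6 in 13 (4.41% of all genes), among them KRTAP9-1 (-8.62 ± 0.85, adjusted p = 8.55e-06). It was less negative at P20 than at P13 in 16 (3.62% of all genes), among them KRTAP16-3 (7.35 ± 1.21, adjusted p = 0.00147). No P20 mutant array detected any of the 24 members, and P13 mutants detected only 6 and 2. In the same step 18 of 24 members fell in controls. With mutants near background at both ages, the shift does not show a rise in mutants. KRTAP14 and KRTAP15 did not shift past the threshold between P3 and P6 (-0.54 ± 0.73 and -0.02 ± 0.59).

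Members bearing KRTAP16 names differed among control arrays of the same age. KRTAP16-9 (Krtap19-1) stood at 4.53 and 4.56 in P3 mutants against 5.53, 11.13, 4.69 and 9.33 in P3 controls. It stood at 4.51 and 4.51 in P6 mutants against 10.24 and 5.03 in P6 controls, and at 4.52 and 4.54 in P13 mutants against 4.73 and 11.34 in P13 controls. The adult control stood at 11.59. Control arrays of 1 age thus lay either near background or far above it, and the mutants near background, so no genotype call was made (SE of 1.74 at P3). A second kept probe of the gene stood at 11.02 and 9.42 in P3 controls 2 and 4 and at 4.66 and 4.65 in P3 controls 1 and 3. Its remaining probe was not detected in any array.

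KRTAP16-5 (Krtap19-3) was high in the same control arrays. Its P3 controls stood at 5.95, 8.64, 5.57 and 6.83, its P6 controls at 7.35 and 5.74, its P13 controls at 5.06 and 6.83, and its adult control at 9.39. KRTAP16-1 stood at 4.51, 7.00, 4.55 and 5.06 in P3 controls, at 6.41 and 4.65 in P6 controls, at 4.52 and 5.93 in P13 controls and at 8.37 in the adult control. Across the P3, P6 and P13 controls, P3 controls 2 and 4, P6 control 1 and P13 control 2 were thus the higher ones in KRTAP16-9 and KRTAP16-5. For KRTAP16-1 the controls that detected it were P3 control 2, P6 control 1, P13 control 2 and the adult control. KRTAP16-4 did not show this, with 12.09 and 12.37 in P3 controls 1 and 3. The mice were of mixed strain, and the part of strain, animal or probe sequence was not tested, since neither individual genotypes nor probe sequences were used here.

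**Figure D4:**
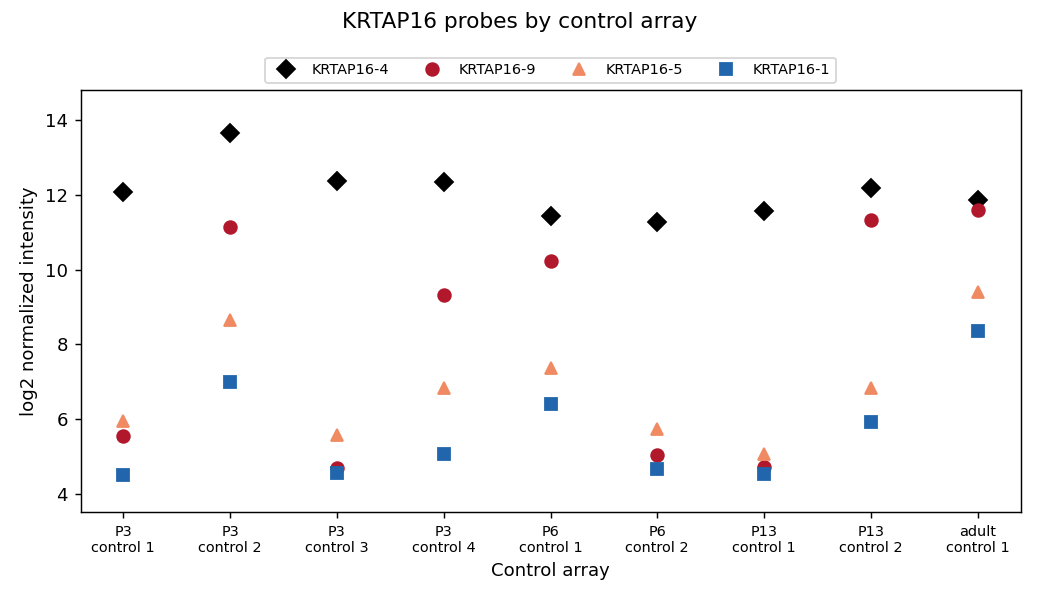
Log2 normalised intensity (y axis) of 4 KRTAP16 probes in the control arrays of P3, P6 and P13 and the adult control (x axis). Each point is 1 array and probe. KRTAP16-9 ranges from 4.69 to 11.13 among P3 controls while KRTAP16-4 stays between 12.09 and 13.66.

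KRTAP8-2 (Krtap19-5) passed in no genotype comparison. It stood at 6.35 and 6.22 in P3 mutants against 7.34, 7.44, 6.96 and 6.44 in P3 controls (-0.76 ± 0.43, adjusted p = 0.831), and at 5.11 and 5.84 in P13 mutants against 5.77 and 5.40 in P13 controls (-0.11 ± 0.50, adjusted p = 0.916). It fell by 1.20 ± 0.43 between P3 and P6 in controls (adjusted p = 0.0416). The rows KRTAP16-10 and KRTAP16-3 moved unequally. At P13 KRTAP16-10 stood at 4.53 and 4.41 in mutants against 5.93 and 5.67 in controls (-1.33 ± 0.57, adjusted p = 0.116), whereas KRTAP16-3 fell past the threshold.

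The hair keratins, the filament proteins that Krtap proteins cross-link, were lower at the same ages. Of 13 tested, 11 were lower at P3 (1.62% of all genes), 8 at P6 (12.9%), 13 at P13 (10.4%), 3 at P20 (5.57%) and 11 in adults (6.47%), and none was higher. Their medians were -3.44, -2.80, -7.92, -0.70 and -7.64 in that order. The largest fitted differences were those of Krt31 at P3 (-4.47 ± 0.43, adjusted p = 7.61e-06), Krt35 at P6 (-4.03 ± 0.69, adjusted p = 0.000483), Krt33a at P13 (-9.33 ± 0.55, adjusted p = 9.86e-09), Krt32 at P20 (-2.40 ± 0.59, adjusted p = 0.0156) and Krt34 in adults (-9.14 ± 1.16, adjusted p = 6.33e-05). At P3 the next were in Krt33b (-4.14), Krt33a (-4.13) and Krt84 (-4.0). In the P13 to P20 step of controls, 13 of 13 fell.

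Regulators of the hair shaft and follicle had fewer lower calls than the hair keratins at every age but P20. Of 12 tested, 1 was lower at P3 (1.62% of all genes), 6 at P6 (12.9%), 7 at P13 (10.4%), 3 at P20 (5.57%) and 6 in adults (6.47%). The P3 call was Foxn1, the transcription factor mutated in nude mice (-1.39 ± 0.29, adjusted p = 0.0152). At an unadjusted p under 0.05 in limma there were 8 regulators at P3, in either direction. Hoxc13, which controls hair keratin and Krtap genes, did not pass at P3 (-1.44 ± 0.51, adjusted p = 0.306) but was lower at P6 (-3.20 ± 0.59, adjusted p = 0.000929), at P13 (-3.34 ± 0.59, adjusted p = 0.000829) and in adults (-4.10 ± 0.68, adjusted p = 0.000689). The higher calls were Nfkb1 at P6 (1.08 ± 0.34, adjusted p = 0.0292) and Ovol1 at P13 (1.17 ± 0.26, adjusted p = 0.00388) and P20 (1.18 ± 0.23, adjusted p = 0.00414). Of 9 tested inner root sheath genes, 3 were lower at P3, 6 at P6, 9 at P13, 2 at P20 and 8 in adults, beside the same shares of all genes.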

How the data were processed

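Per the file headers, the deposited signal table holds average bead intensity per probe, not normalised between arrays; a background had already been subtracted on the 4 arrays of chips G and H. Beside it stand detection p-values in 10 deposited columns and, under the same header, the fraction 1 minus p in 13 deposited columns; 1 column, of an adult mutant, holds bead numbers and was not used, so detection on that array was called from a signal limit set by the other arrays of its chip. The authors also deposited a log2 matrix made with limma, per the submitters' processing notes, used here as an alternative. Software of the scan summary is not given in the sources used here.

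Intensities of all 24 arrays were background-corrected (normexp from detection p, offset 16), quantile-normalised and log2-transformed. The filter asked for detection (p under 0.01) on 2 or more arrays and took the brightest such probe of each TargetID, leaving 14950 genes. limma 3.58.1 (R 4.3.3) fitted 1 mean per group to 23 arrays (12 residual and 3.93 prior degrees of freedom). The fit was tested on simulated data. Members were chosen by name; members and lists were chosen with earlier results of these data known. Genes named in full were the 5 largest falls and the 2 largest rises per age that passed without overlap, the 3 largest each way per control step, the brightest of each subfamily and the 4 largest hair keratin changes; other members are named to account for all. Alternatives covered background, offset, filter, probe averaging, chip blocks, array weights, subsets, the array with conflicting labels, the authors' matrix and single arrays left out. Protein composition was not computed. Probes differ in sequence, so levels of different probes are not set against each other, and cross-hybridisation among these similar genes was not tested.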

Additional observations from a re-analysis of the deposited data

Results flagged for a closer look

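In the P3 controls, the only group of 4 arrays, the lowest array stood apart from the other 3 for 4 of the 24 members tested. Its gap to the nearest array was 0.848 of the group's range for KRTAP12-1, 0.935 for KRTAP5-4, 0.840 for KRTAP6-3 and 0.830 for KRTAP9-3. Chance marks about 1 in 20 independent groups in this way. The 24 members share the same 4 arrays, so that rate cannot be set against their count. The low array was control 4 each time, the P3 array on chip B, and its member mean was 9.55, against 10.32, 10.98 and 10.07 in the others.

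The genotype difference itself differed between ages by an interaction test. From P3 to P6 it shifted upward in 10 members, by 4.78 in KRTAP16-7, 4.50 in KRTAP9-1 and 3.63 in KRTAP6-2. From P6 to P13 it shifted downward in 13 members, by -8.62 in KRTAP9-1, -7.79 in KRTAP16-7 and -7.51 in KRTAP2-4. From P13 to P20 it shifted upward in 16 members, by 7.35 in KRTAP16-3, 6.90 in KRTAP16-8 and 6.77 in KRTAP2-4. In that step 18 of 24 members fell in controls, and no P20 mutant array detected a member. Fibroblast markers also shifted, 14 of 14 downward from P3 to P6 and 11 of 14 upward from P6 to P13, and their part was not tested.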

How the results depend on the processing

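No genotype comparison gained a member in the opposite direction, except P6, where KRTAP9-1 was called higher without background correction, with offset 50, with chip as a random block, with only the P6 arrays, with weights and without chips G and H. Counts stayed within 1.5 times those reported except as follows. With the conflicting P3 array counted as a mutant, 8 members were lower at P3 and 3 shifted between P3 and P6. The P20 count of 1 was 5 with chip as a fixed block, 4 with chip as a random block, 8 without chips G and H (1 array per genotype left at P20), and 0 with only the P20 arrays, with array weights or on the authors' matrix. The control step from P6 to P13 (6) gave 10 without background correction, 11 with offset 50, without chips G and H or on the authors' matrix, 2 with chip as a random block, 14 with only the arrays compared and 16 with weights. The mutant step from P3 to P6 (0) gave 3, 5 and 2 with only those arrays, with weights and without chips G and H. The mutant step from P13 to P20 (1) gave 0 without background correction, with chip as a random block, with only those arrays, with weights and on the authors' matrix. Causes were not tested. Leaving out single arrays gave 16 to 20 members at P3, 7 to 10 at P6 (7 without mutant 2 or control 2), 16 to 17 at P13, 1 to 3 at P20 (2 without control 2, 3 without control 3) and 21 to 21 in adults. Control steps gave 9 to 15 (9 without either P6 control), 2 to 2 and 17 to 20, mutant steps 0 to 0, 11 to 13 and 1 to 1, and shifts of the difference 7 to 11, 12 to 13 and 14 to 17. Of 367 values of named genes under alternatives, 355 kept their call, 12 lost it and none reversed; of 149 with 1 array left out, 131 kept it and 18 lost it. Steps between ages were not run with chip as a fixed block, because the ages compared share no chip, and the adult control could not be left out. No paired analysis was possible because the groups compared share no replicate numbers in the labels. Signal limits what can be seen: the upper quartile of intensity stood 21.2 to 182 above background, the highest member signal reached 0.460 of its array's maximum, and mutants at background give only bounds.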

Other observations

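A further 14 rows of the table are Krtap genes under older names, 11 of them tested. In mutants 10 were lower at P3 (1.62% of all genes), 5 at P6 (12.9%), 10 at P13 (10.4%), 0 at P20 (5.57%) and 11 in adults (6.47%). At P20, where limma gave 0, 1 had an unadjusted p under 0.05. The row for Krtap4-13 was higher in P6 mutants than in P6 controls, at 7.03 and 7.96 against 5.45 and 5.33 (2.11 ± 0.40, adjusted p = 0.0012). It was the 1 Krtap row, of either naming, called higher in mutants at any age under the reported settings. At P3 it stood at 7.64 and 7.35 in mutants against 9.60, 9.76, 9.93 and 9.04 in controls. Its controls thus stood lower at P6 than at P3, while its mutants overlapped between these ages. Krtap26-1, like Krtap4-13 picked after its values were seen, stood at 10.44 and 9.91 in P6 mutants against 13.13 and 12.92 in controls (-2.85 ± 0.56, adjusted p = 0.00142).

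The P3 array with conflicting labels had Mad2l1 at 7.89, beside 4.80 and 5.85 in P3 mutants and 7.09 to 7.99 in P3 controls. Of 24 members, 18 lay between the lowest and highest P3 control, 5 below every control but above both mutants, and 1 within the mutants' range or below. Its member mean was 9.73.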
